A study of Homo sapiens with 6 samples.

Results

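The early growth response (EGR) genes, their NAB corepressors, the immediate early response (IER) genes, the serum response factor gene SRF and the orphan receptor gene NR4A1 were followed in H460 cells without glutamine. The 10 genes, EGR1, EGR2, EGR3, NAB1, NAB2, IER2, IER3, IER5, SRF and NR4A1, were picked by symbol among the 24462 distinct symbols counted, as immediate early genes outside the AP-1 family together with their regulators, and all 10 were found. H460 is an established line of human lung cancer cells. The depleted group (3 libraries) came from cells held for 24 h in RPMI 1640 without glutamine and with 10% dialyzed serum. The replete group (3 libraries) came from the same line with glutamine, and the labels do not spell out its serum over those hours. RNA was read from near the polyadenylated 3′ end of each transcript, so a count stands for a transcript end and does not tell isoforms apart.

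Immediate early genes are transcribed within minutes of a growth factor or stress signal, without new protein synthesis. In the best known route, ERK and related kinases phosphorylate ELK proteins that sit with SRF on serum response elements, whose core is the CArG box, and EGR1 is the textbook target. EGR1, EGR2, EGR3 and EGR4 are zinc finger factors that bind a GC-rich site. EGR1, EGR2 and EGR3 induce NAB2, and the NAB1 and NAB2 proteins bind EGR1, EGR2 and EGR3. The NAB proteins repress these factors through the NuRD chromatin complex, which closes a feedback loop. IER2 and IER5 are small nuclear proteins that bind the phosphatase PP2A, IER3 (IEX-1) is a short-lived stress protein that affects cell survival, and NR4A1 (NUR77) is a nuclear receptor that needs no known hormone.

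The promoters are shown here because members that share a site can be set beside how far each moved. The 250 bases before each RefSeq transcript start (GRCh38.p14) were searched on both strands for 5 motifs: the CArG box, the EGR site GCGNGGGCG, the ETS site CCGGAAG, the cyclic AMP response element TGACGTCA and the AP-1 site TGANTCA. Windows of 8 of the 10 members were used (14 windows). IER3 and EGR3 were not part of the member search, so nothing is said here of their promoters. The CArG box lay in windows of EGR1, EGR2 and SRF (3 of the 14 windows), and in 1.16% of all 35116 windows. The EGR site lay in windows of EGR1, NAB1, NAB2 and SRF (5 of the 14 windows), and in 8.41% of all windows. In these exact letters, the ETS site lay in IER2 alone among these 8 genes (1 of the 14 windows), against 8.52% of all windows. Shorter or variant ETS sites were not searched for, so the other genes may hold them. In their full letters, the cyclic AMP element and the AP-1 site were in 0 of the 14 windows, against 1.65% and 6.57% of all. Shorter or variant forms of these were not searched for either, so the windows may hold them. The stretches of EGR1 and EGR2 printed below both hold acgtca, a part of the cyclic AMP element. The last 130 bases before the start are printed below for the 6 genes with a CArG box, EGR site or ETS site there, with these sites in capitals.

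EGR1, chr5:138465349-138465478, plus strand: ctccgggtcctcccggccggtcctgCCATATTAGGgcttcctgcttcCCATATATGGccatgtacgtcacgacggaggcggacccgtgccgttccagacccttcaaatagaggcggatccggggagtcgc
EGR2, chr10:62816367-62816496, minus strand: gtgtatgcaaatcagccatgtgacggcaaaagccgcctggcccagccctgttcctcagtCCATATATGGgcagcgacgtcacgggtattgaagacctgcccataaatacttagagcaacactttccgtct
SRF, chr6:43171139-43171268, plus strand: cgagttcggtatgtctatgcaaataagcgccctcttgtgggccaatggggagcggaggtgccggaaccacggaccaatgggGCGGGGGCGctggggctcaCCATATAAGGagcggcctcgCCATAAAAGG
NAB1, chr2:190648765-190648894, plus strand: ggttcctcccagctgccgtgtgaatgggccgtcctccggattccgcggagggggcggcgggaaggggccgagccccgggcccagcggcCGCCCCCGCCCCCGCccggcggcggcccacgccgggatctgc
NAB2, chr12:57088984-57089113, plus strand: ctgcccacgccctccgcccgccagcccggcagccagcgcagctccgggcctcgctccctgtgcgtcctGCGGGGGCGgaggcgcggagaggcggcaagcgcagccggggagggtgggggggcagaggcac
IER2, chr19:13150281-13150410, plus strand: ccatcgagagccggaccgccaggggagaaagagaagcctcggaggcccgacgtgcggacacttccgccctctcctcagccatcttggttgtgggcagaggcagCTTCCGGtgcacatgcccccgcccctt

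EGR1 held a pair of CArG boxes, 105 to 96 and 83 to 74 bases before the start, and an EGR site 198 to 190 bases before it, outside the printed stretch. The single box of EGR2, 71 to 62 bases before one of its 3 annotated starts, had the same letters as the second box of EGR1, CCATATATGG. In SRF, an EGR site (49 to 41) stood upstream of CArG boxes at 30 to 21 and 10 to 1 bases. NAB1 held 2 EGR sites on the reverse strand, at 42 to 34 and 36 to 28 bases, which overlap in the capital run. A second annotated start lies downstream, and its window holds both of these sites and 1 more, 175 to 167 bases before it. NAB2 held 1 EGR site, at 62 to 54 bases. IER2 held its ETS site on the reverse strand, 27 to 21 bases before the start. No box, EGR site or ETS site was found in the windows of IER5 and NR4A1, which says only that these letters are not there. A match is a description of the letters and was not tested as a binding site.

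The library totals lay between 7550849 and 10914899 counts. Levels are given as CPM, each count scaled to its library total, and the upper limit that a count of 0 allows (3 counts) stood for 0.275 to 0.397 CPM. Limits and intervals from counts take in counting error alone. No pair within a group was as alike as repeat sampling would give (chi-square over its degrees of freedom, 1.51 to 19.4). The 2 pairs that hold depleted replicate 2 were the farthest apart, at 19.4 and 11.7. Member results that rest on that library, and some list counts, are also given without it. Since the labels name no separate cultures, a p-value here speaks of the spread among these libraries, possibly a technical one. Of 5 epithelial markers, KRT8, KRT18 and KRT19 were well counted and EPCAM and CDH1 were at or near 0. The summed epithelial level was 761 to 881 CPM in depleted and 2067 to 2092 CPM in replete libraries. Of 5 leukocyte markers, PTPRC had 4 and 3 counts in the groups and the sum was 4.58 to 6.07 and 7.64 to 11.7 CPM, and of 4 endothelial markers CDH5 and VWF were at 0. The 5 fibroblast markers summed to 32.8 to 108.7 CPM in depleted and 25.7 to 39.6 CPM in replete libraries, which overlap. Mean levels in depleted against replete libraries were higher for COL1A1 (23.4 against 8.59 CPM), COL1A2 (6.25 against 2.24) and COL3A1 (26.5 against 11.4). LUM was lower (4.39 against 10.3 CPM), and DCN had 12 counts in each group. The part of these differences in the results was not tested.

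Most of the set was far higher in the cells without glutamine. Of the 9 members with enough counts to test, 8 rose, 0 fell and NR4A1 did not pass (edgeR, quasi-likelihood F test, adjusted p under 0.05). Over all 12739 genes tested, 39.1% rose, 39.4% fell and 78.6% passed in either direction. The median log2 fold change of the 9 members was 3.27, against −0.02 over all genes, and 6 of the 9 (EGR1, EGR2, IER3, IER2, NAB1 and NAB2) rose by more than 3 on the log2 scale, as 3.47% of all genes did. The CPM ranges of the groups did not overlap for 8 of the 9, against 81.0% of all genes. The members were chosen with earlier results of these data known, so these shares describe them and are no test. Without depleted replicate 2, 9 of 9 rose. With library totals in place of trimmed-mean (TMM) factors the median gene lay 0.23 lower (shift −0.23, log2), so log2 fold changes are relative to the TMM scaling, while CPM values use library totals. In such bulk counts, fewer cells that make a transcript and less of it per cell cannot be told apart.

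**Figure D1:**
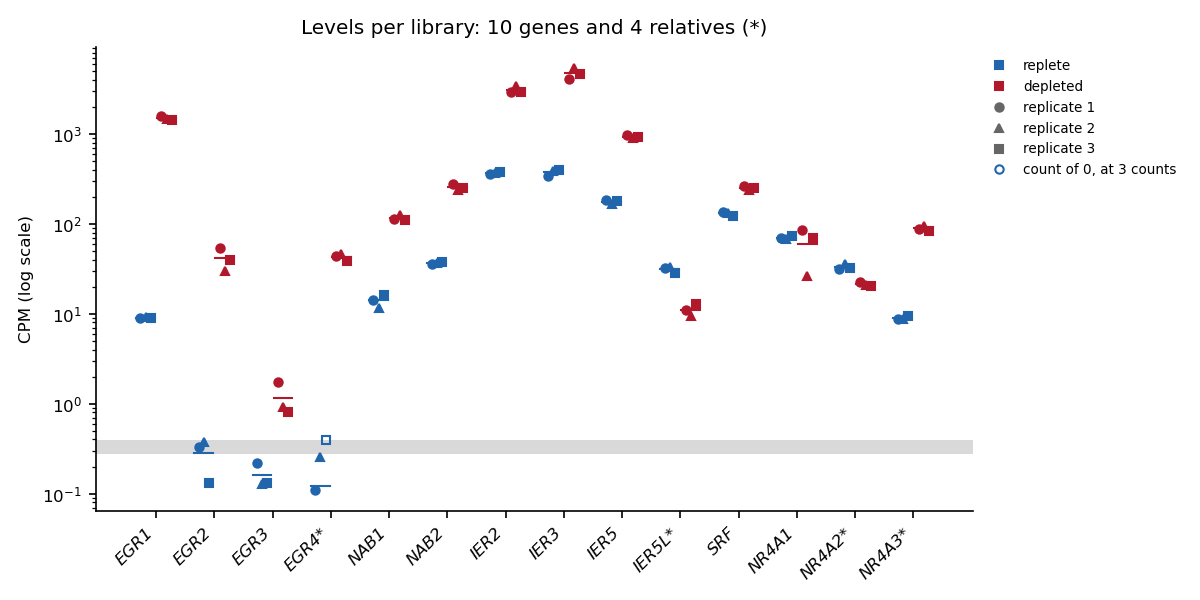
CPM of the 10 genes and 4 relatives (marked *) in each library, on a log axis. Points are libraries, shapes are replicates, short lines are group means, and the grey band is the level of 3 counts (0.275 to 0.397 CPM), where a count of 0 is drawn as an open symbol. EGR1 went from about 9 to 1413 to 1592 CPM, whereas the NR4A1 groups overlap, with depleted replicate 2 at 26.0 CPM.

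Together the 10 genes took 0.114%, 0.119% and 0.121% of all counts in replete replicates 1 to 3, and 1.04%, 1.18% and 1.06% in depleted replicates 1 to 3. IER3 alone made up the largest piece of the depleted share, with 0.414%, 0.540% and 0.463% of all counts. The groups are far apart on this measure, and within each group the libraries are close.

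Among the EGR factors, EGR1 had the steepest well-measured rise. EGR1 stood at 8.97, 9.22 and 8.87 CPM in the replete libraries and at 1592, 1467 and 1413 CPM in depleted replicates 1 to 3. Every depleted library was above every replete one by 2 orders of magnitude, and the 3 libraries of each group lay close together. The log2 fold change was 7.59 (SE 0.09, edgeR adjusted p = 9.69e-15), which ranked 27 among the 12739 genes in size.

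EGR2, the family member best known from hindbrain and Schwann cell development, was nearly silent with glutamine. It had 3, 3 and 1 counts in the replete libraries and 54.2, 30.1 and 40.03 CPM (592, 263 and 347 counts) in depleted replicates 1 to 3. All depleted libraries were above the replete ones, and they spread 1.80-fold among themselves, with replicate 2 lowest. Per summed library totals, 1202 counts against 7 gave a depleted to replete ratio of 149 (95% counting interval 71.9 to 370.3), and the fitted log2 fold change was 7.34 (SE 0.36, edgeR adjusted p = 5.65e-09).

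EGR3 stayed near the detection limit and was not tested. It had 2, 1 and 1 counts in the replete libraries, all below the level of 3 counts, and 19, 8 and 7 counts (1.74, 0.916 and 0.808 CPM) in the depleted ones. The ranges did not overlap, and 34 counts against 4, each taken per summed library totals, gave a 7.35-fold ratio (counting interval 2.62 to 28.5). With no filter on low counts EGR3 passed at 2.96 on the log2 scale (edgeR adjusted p = 0.000131).

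EGR4, a relative outside the chosen set, moved like EGR1 and EGR2 in size. It had 1, 2 and 0 counts in the replete libraries and 44.3, 45.9 and 38.9 CPM in the depleted ones. With 1221 counts against 3, the ratio per summed library totals was 352, with a counting interval of 120.2 to 1710.0 (edgeR adjusted p = 2.61e-11). WT1, a zinc finger factor with a similar binding site, had 11 and 10 counts over the groups and was not tested.

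The corepressor genes rose too, by less. NAB1 was at 14.4, 11.6 and 16.3 CPM in the replete and 114, 125 and 110.3 CPM in the depleted libraries. Its log2 fold change was 3.27 (SE 0.12, edgeR adjusted p = 6.21e-11). NAB2, the inducible member of the pair, was at 36.2, 36.5 and 37.5 CPM in the replete and 275, 240.4 and 253 CPM in the depleted libraries. Its log2 fold change was 3.03 (SE 0.08, edgeR adjusted p = 5.71e-12). For both genes the groups were well apart, and NAB1 spread more widely than NAB2 among the replete libraries. The exons of NAB2 overlap those of STAT6 on the other strand in GENCODE 29, and no source used here says that reads were counted by strand, so the pair may share reads. STAT6, a transcription factor of interleukin-4 signalling, was at 61.5, 69.1 and 60.8 CPM in the replete and 207, 208 and 206 CPM in the depleted libraries (log2 fold change 1.93), so it was above NAB2 in the replete and below it in the depleted libraries.

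**Figure D2:**
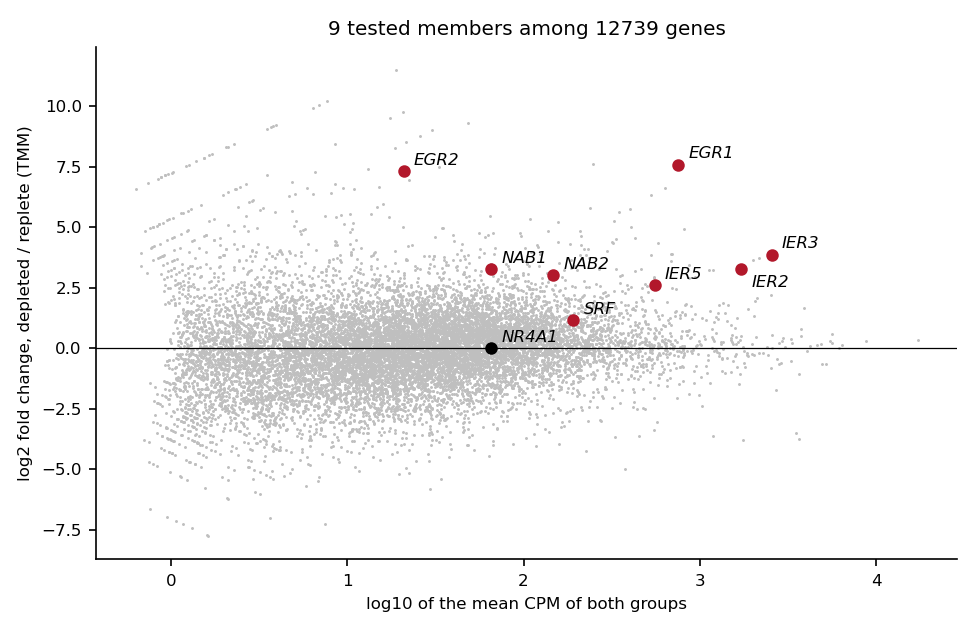
Log2 fold change (depleted over replete, TMM scaling) against the log10 of the mean CPM of both groups for 12739 tested genes (grey). The 8 members that passed are red, from SRF at 1.16 to EGR1 at 7.59, and NR4A1, at 0.02, is black.

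The balance between the repressors and EGR1 was read from ratios within a library, which do not depend on the scaling between libraries. In log2 units, the ratio of NAB2 to EGR1 counts was 2.01, 1.98 and 2.07 in the replete and −2.54, −2.61 and −2.48 in the depleted libraries. The ratio fell by 4.56, or 23.6-fold, and the ratio of NAB1 to EGR1 fell by 4.31, or 19.8-fold. The ratio of NAB2 to NAB1 differed by −0.25 between group means (1.14 ± 0.168 depleted and 1.39 ± 0.230 replete, SD, n = 3 each), with overlapping ranges. So the groups separated in NAB to EGR1 balance and not in the balance of the 2 NAB genes. In all, 10 pairs were compared, and with 3 against 3 libraries the two-sided exact permutation test cannot go below 0.10. The 8 pairs whose ranges did not overlap sat at that limit (adjusted p = 0.125 over 10 pairs), and the NAB2 to NAB1 and EGR2 to EGR1 pairs had exact permutation p = 0.30 and 0.40. Pairs that share EGR1 are not separate results, and the share of other gene pairs that separate was not computed.

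Within the EGR family, the ratio of EGR2 to EGR1 differed by −0.40 on the log2 scale, less than the spread of replete libraries (SD 0.596), where EGR2 had 1 to 3 counts. The ratio of EGR3 to EGR1 fell by 4.97, from −5.38 ± 0.310 to −10.3 ± 0.474, on 1 to 2 EGR3 counts per replete library. The changes of EGR1 and EGR2 were thus not distinguishable at this depth, while the EGR3 to EGR1 ratio was lower in all 3 depleted libraries than in any replete one.

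**Figure D3:**
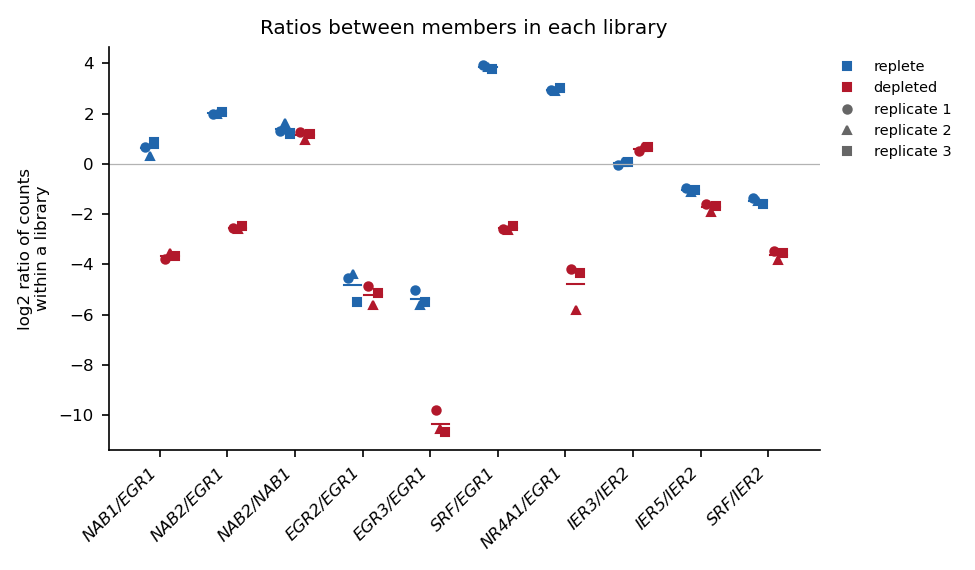
Log2 ratio of counts (0.5 added to each) between members, within each of the 6 libraries, in blue for replete and red for depleted. Lines are group means. The groups separate for 8 of 10 pairs and overlap for NAB2/NAB1 and EGR2/EGR1. For single genes, the CPM ranges of 81.0% did not overlap.

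The 3 IER genes all rose, and IER3 rose most. IER3 was at 340.0, 390.4 and 396 CPM in the replete libraries and at 4136, 5404 and 4634 CPM in depleted replicates 1 to 3. The log2 fold change was 3.88 (SE 0.11, edgeR adjusted p = 2.21e-10), with depleted replicate 2 highest. The symbol stood on 6 entries of each file, and all counts were on 1 of them.

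IER2, a nuclear protein of the immediate early wave, was at 354, 368 and 375 CPM in the replete and 2917, 3373 and 2939 CPM in the depleted libraries (log2 fold change 3.30, SE 0.08, edgeR adjusted p = 1.24e-12). IER5, which is known to activate the heat shock factor HSF1 with PP2A, was at 183, 168 and 180.4 CPM in the replete and 962, 895 and 931 CPM in the depleted libraries (2.62, SE 0.07, edgeR adjusted p = 3.08e-12). Neither gene had overlapping groups, and IER5 had the tightest depleted libraries of the set, 1.07-fold from lowest to highest. Relative to IER2, IER3 gained 0.58 and IER5 lost 0.68 on the log2 scale, with no overlap between groups for either ratio.

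IER5L, the close relative of IER5, went the other way. It was at 32.3, 33.0 and 28.7 CPM in the replete and 10.99, 9.51 and 12.8 CPM in the depleted libraries. All depleted libraries were below the replete ones, and the log2 change came to −1.27 (SE 0.13, edgeR adjusted p = 1.48e-06).

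SRF, which carries CArG boxes in its own promoter, rose modestly. It was at 137, 133 and 122 CPM in the replete and 261, 238 and 253 CPM in the depleted libraries. The groups did not overlap, and the log2 fold change was 1.16 (SE 0.07, edgeR adjusted p = 9.83e-09), which ranked 2405 among all genes. The ratio of SRF to EGR1 fell by 6.42 on the log2 scale and that of SRF to IER2 by 2.13. The 3 genes with a CArG box in the searched window thus rose by 7.59 (EGR1), 7.34 (EGR2) and 1.16 (SRF). Those with an EGR site rose by 7.59 (EGR1), 3.27 (NAB1), 3.03 (NAB2) and 1.16 (SRF). Of the searched members with neither, IER2 rose by 3.30 and IER5 by 2.62, and NR4A1, at 0.02, did not pass. A link between site and change was not tested.

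NR4A1 had no common direction. It was at 68.8, 68.6 and 73.0 CPM in the replete libraries, and at 86.4, 26.0 and 68.9 CPM in depleted replicates 1 to 3. Of the depleted libraries, 1 lay above the replete range, 1 far below it and 1 inside it. The log2 fold change was 0.02 (SE 0.46, edgeR adjusted p = 0.976), and over 15 alternatives it ran from −0.33 to 0.38, turning negative with library totals or upper quartile factors. Without depleted replicate 2 it was 0.38 and passed (edgeR adjusted p = 6.42e-05). In that library NR4A1 lay 1.55 below the mean of the other 2 depleted libraries on the log2(CPM + 0.5) scale (difference −1.55), a distance reached by 0.552% of genes with a mean of at least 10 CPM. EGR2 lay −0.62 from the other 2 there (6.15% of genes as far), and EGR1 −0.03.

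The other NR4A receptors differed from NR4A1 and from each other. NR4A3 (NOR1) was at 8.64, 8.84 and 9.54 CPM in the replete and 88.0, 95.9 and 84.2 CPM in the depleted libraries, and rose by 3.54 (SE 0.11, edgeR adjusted p = 1.41e-11). NR4A2 (NURR1) was at 31.3, 35.9 and 32.2 CPM in the replete and 22.8, 21.0 and 20.4 CPM in the depleted libraries, and fell by 0.40 (SE 0.11, edgeR adjusted p = 0.00450). Depleted replicate 2 was not low for either, unlike for NR4A1. Differences in change between the 3 receptors were not tested.

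**Figure D4:**
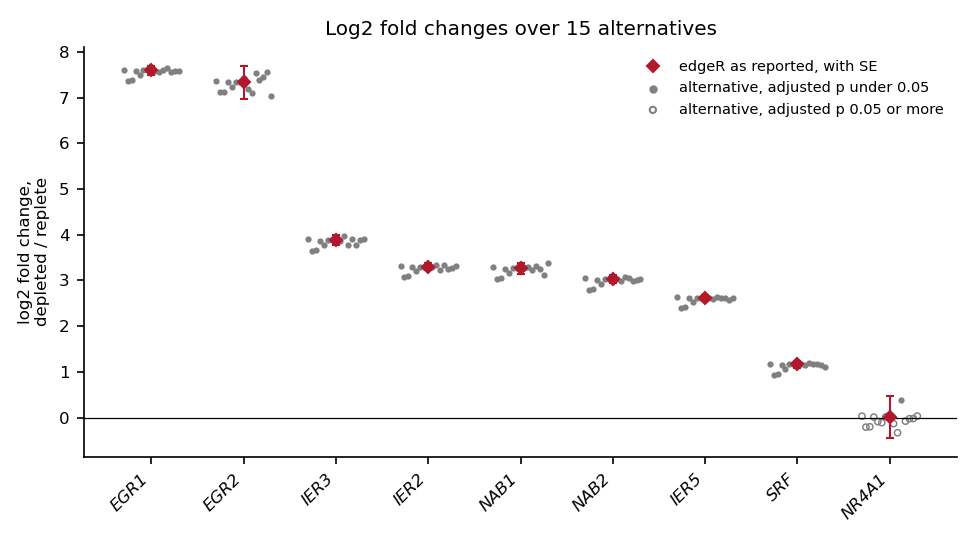
Log2 fold change of each tested member as reported (red diamonds, bars are SE) and under 15 alternatives (grey, open where the adjusted p was 0.05 or more). The 8 members that rose passed in all 15, and NR4A1 passed in 1, without depleted replicate 2.

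The genes most like 4 of the members over the 6 libraries were found by the root-mean-square difference of log2(CPM + 0.5), each gene centred on its own mean, among 8506 genes with a mean of at least 10 CPM. The nearest to EGR1 was VGF, a secreted neuropeptide precursor, at a difference of 0.20 (9.65 ± 2.07 CPM replete and 1551 ± 54.1 CPM depleted), followed by FCMR (0.23) and DHRS2 (0.31). Those nearest to IER2 were LINC00152 (0.04), the secreted hormone gene STC2 (0.05) and the AP-1 subunit FOSL1 (0.07). For SRF they were the adaptor gene CRK (0.03), GID8 (0.04) and TICAM2 (0.04), whose counts are nearly those of the overlapping readthrough entry TMED7-TICAM2.

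For NR4A1 the 3 nearest genes were LINC00998 (0.10), MAP2K1 (0.12), which encodes the ERK kinase MEK1, and ISCU (0.12), an iron-sulfur cluster scaffold. They shared the low depleted replicate 2: MAP2K1 was at 36.4, 13.7 and 32.9 CPM in depleted replicates 1 to 3 and at 33.9, 36.8 and 35.2 CPM in the replete libraries. ISCU was at 161, 54.9 and 137 CPM in the depleted libraries. Like NR4A1, none of the 3 passed with all libraries and all 3 passed without depleted replicate 2. The 3 were picked for likeness to NR4A1 over these same libraries, so the shared pattern is no separate result. For these genes the 1 library sets the pattern, and the measure says nothing of function.

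The wider pathway was described from lists of known partners and targets, by counts and medians beside those of all genes. Of 6 tested SRF partners, 4 rose (3 with library totals alone) and 2 fell, with a median log2 fold change of 0.66. ELK1, the ETS factor that carries the ERK signal to SRF, rose from 30.5 ± 1.86 to 124 ± 5.07 CPM (SD, n = 3 per group, log2 fold change 2.25). MKL1, the actin-regulated SRF coactivator also called MRTFA, rose by 2.06 from 2.90 ± 0.131 CPM. SCAI, which represses MRTF proteins, fell from 5.31 ± 0.714 to 1.87 ± 0.496 CPM (log2 fold change −1.29), and its exons overlap those of GOLGA1. MKL2 (MRTFB) fell by 0.50 (edgeR adjusted p = 0.0218). It missed the threshold with DESeq2 (adjusted p = 0.0963), without depleted replicate 3 (edgeR adjusted p = 0.0820) and without replete replicate 2 (edgeR adjusted p = 0.0703).

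The actin cytoskeleton genes known as SRF and MRTF targets moved in both directions. Of 31 tested, 14 rose, 12 fell and 5 did not pass, with a median of 0.04. With library totals alone 11 rose and 14 fell with a median of −0.19, and without depleted replicate 2, 15 rose and 13 fell. TES, a focal adhesion protein, rose from 35.1 ± 3.49 to 257 ± 23.9 CPM (log2 fold change 3.10), and cofilin, CFL1, whose exons overlap those of MUS81, fell from 784 ± 11.9 to 259.9 ± 12.6 CPM (−1.37). ACTA2, smooth muscle actin, rose from 12.3 ± 1.59 to 118 ± 14.6 CPM (3.49). Its opposite-strand neighbour ACTA2-AS1 had nearly the same means (12.4 and 118.0 CPM), so either gene could be the source of these reads. The exons of FAS also overlap ACTA2 on the other strand, and FAS rose by 2.79 (means of 4.27 and 25.5 CPM), so some reads may be shared with it. The actin crosslinker gene ACTN4 fell by 1.53, and CAPN12, whose exons overlap it on the other strand, fell by 1.51.

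Genes described in the literature as EGR1 targets were also split. Of 17 tested, 10 rose, 6 fell and 1 did not pass (median 1.35). ATF3, a stress-induced repressor, rose from 9.91 ± 2.54 to 469 ± 8.81 CPM (log2 fold change 5.80), and the secreted factor GDF15 rose by 3.46. The prostaglandin synthase gene PTGES fell from 466 ± 13.4 to 97.4 ± 13.6 CPM (−2.03), and the adhesion receptor CD44 fell by 1.10. ATF3 and ID3 are on this list and on that of other immediate early genes.

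Genes for protein partners of the NAB and IER products moved both ways. Of 13 NuRD subunits, 2 rose and 8 fell (median −0.53). With library totals alone 2 rose and 10 fell, and without depleted replicate 2, 2 rose and 9 fell. CHD4, the remodelling ATPase that NAB proteins contact, fell from 174 ± 3.33 to 50.0 ± 5.70 CPM (log2 fold change −1.58), and the histone chaperone RBBP4, whose exons overlap those of SYNC, fell by 1.14. MBD3 rose by 1.22 and GATAD2B by 1.03. Of 12 PP2A subunits, 6 rose and 4 fell (median 0.66). PPP2R2A, the B55 alpha subunit, rose from 78.0 ± 2.99 to 309 ± 41.8 CPM (2.21) and the catalytic subunit gene PPP2CA from 157 ± 6.39 to 496 ± 39.1 CPM (1.89). The scaffold gene PPP2R1A fell by 0.83 and PPP2R5D, whose exons overlap those of MEA1, by 1.08. Of the retinoid X receptors, which pair with NR4A1 and NR4A2, RXRA fell by 0.94 and RXRB rose by 0.59, with exons that overlap SLC39A7.

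**Figure D5:**
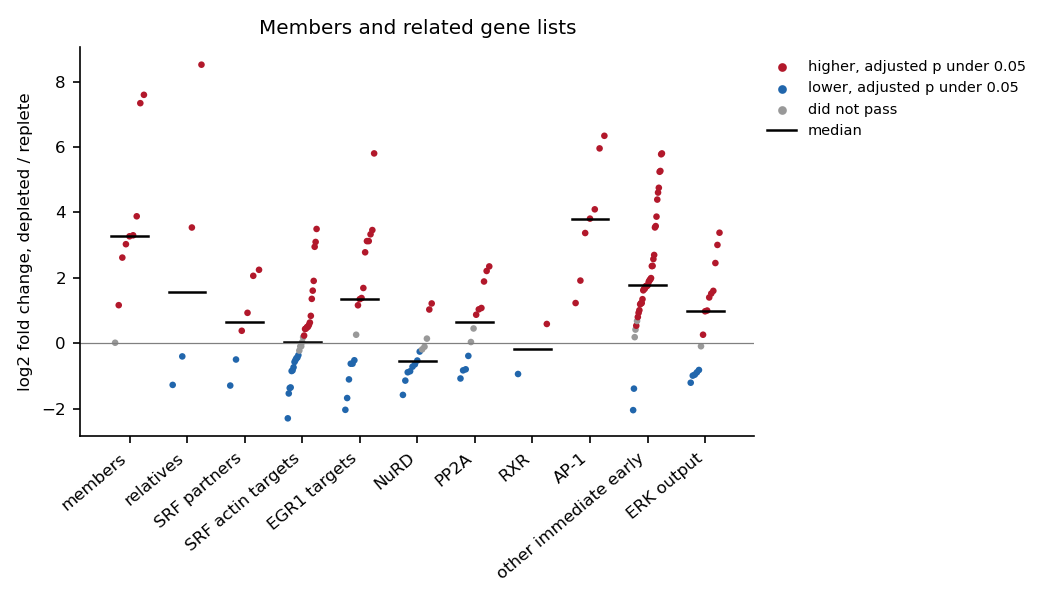
Log2 fold changes of the tested members and of 10 related lists, 1 point per gene, red or blue where the adjusted p was under 0.05 and grey otherwise, with black lines at list medians. The member median is 3.27, that of AP-1 is 3.81, that of the SRF actin targets is 0.04 and that of NuRD is −0.53.

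Among other early genes, 7 of 7 AP-1 subunits rose (median 3.81), with JUN at 6.34 and FOSL1 at 3.37. Of 38 further immediate early genes, 33 rose, 2 fell and 3 did not pass (median 1.77). With depleted replicate 2 left out, 36 rose and 2 fell. MAFF, a small bZIP factor, rose from 19.1 ± 1.06 to 629 ± 34.7 CPM (log2 fold change 5.27) and PPP1R15A rose by 5.78. The 2 that fell were KLF2, from 46.5 ± 3.27 to 9.54 ± 3.62 CPM (−2.04), and ID1, by 1.39. Of 15 ERK output and feedback genes, 9 rose, 5 fell and 1 did not pass (median 0.98), or 8 and 6 with library totals alone. SPRY2, a feedback inhibitor, rose by 3.01 and PHLDA1 by 1.52, while DUSP4 fell by 0.89 and ETV5, whose exons overlap those of DGKG, by 0.96. The shares of all genes that rose (39.1%) and fell (39.4%) stand beside the list counts from all libraries with TMM factors. For the counts with library totals alone, the background was 4132 genes higher and 5925 lower of 12739. For those without depleted replicate 2 it was 5257 higher and 5368 lower of 13000.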

How the data were processed

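RNA from 3 depleted and 3 replete libraries of H460 cells was sequenced from the 3′ end (Lexogen QuantSeq, 500 ng of total RNA, per the labels' protocols). Bowtie2, edgeR and hg19 appear in the submitters' processing notes, without role or version, and the counting program, strand use and annotation are not given in the sources used here. The authors deposited raw counts per gene symbol, 1 library per file, and the unit was checked on the values. Each file held 25737 entries, and the 286 symbols on several entries were summed.

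Genes were kept by filterByExpr (minimum count 10, total 15) and tested across all 12739 genes with TMM factors (0.917 to 1.09) and edgeR 4.0.16 (R 4.3.3; quasi-likelihood F test, robust fit), two-sided, with Benjamini-Hochberg adjustment and a threshold of 0.05. The SE is the log2 fold change divided by the root of the F statistic. The code was tested on simulated data. Alternatives were other scalings, filters and tools (DESeq2 1.42.0, limma 3.58.1), a fold threshold of 1.5, a replicate block and leaving out each library. Ratios between members added 0.5 to each count. Exon overlaps are from GENCODE 29 on GRCh38, which differs in build from the counts and served for names only. Promoter sequences are RefSeq's. The members and lists were chosen with earlier results of these data known. Named genes are the members, their 3 nearest genes by profile for EGR1, IER2, SRF and NR4A1, genes whose exons overlap a member, and in each list the 2 smallest p in each direction. Of the 57 genes named before the overlap rule, 53 were in the annotation. Genes that overlap a list gene, WT1 and the markers were named besides.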

Additional observations from a re-analysis of the deposited data

How the results depend on the processing

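Over 15 alternatives, the 8 members that rose kept their direction and passed each time, and 8 or 9 members were higher. NR4A1, at 0.02, turned negative with library totals alone (−0.21), upper quartile factors (−0.20), a mean of at least 10 CPM (−0.086), limma-voom (−0.13) and the replicate block (−0.11), and ran from −0.33 to 0.38 when 1 library was left out. The cause was not tested. Against a fold of 1.5 (glmTreat), which asks for larger changes by construction, 3324 genes were higher, NR4A2 (−0.40) no longer passed (adjusted p = 0.984), and the counts were 1 relative and 1 SRF partner lower, 7 actin genes higher and 6 lower, 3 EGR1 targets lower, 4 NuRD genes lower and 0 retinoid X receptors higher. With a mean of at least 10 CPM, 0 of 3 SRF partners were lower, since MKL2 and SCAI were not tested, and 5 of 12 ERK output genes were higher, fewer than the genes left untested account for (cause not tested). DESeq2 called 1 SRF partner lower, and leaving out 1 library gave 1 to 2.

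Whether the replicate numbers pair the libraries cannot be settled with 3 libraries per group. Same-numbered libraries had correlations of their deviations of 0.192, 0.0465 and 0.0283 over 8507 genes. Those of differently numbered libraries ran from −0.145 to 0.0927. With the replicate block, 8 members were higher and 0 lower, 4941 genes were higher and 4999 lower. Depth limited EGR3 and the replete levels of EGR2 and EGR4.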
